A study of Mus musculus with 5 samples.

Results

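Cancer-associated fibroblasts (CAFs) cultured from tumors of transgenic mice were compared with CAFs cultured from patient-derived xenografts (PDX), the human tumors grown in mice. The comparison set the library of Cre- CAFs over the library of untreated PDX CAFs, neither of which carried a knockout or an siRNA. Its members were chosen by position and level alone, as the autosomal genes (chromosomes 1 to 19) with at least 1 CPM (a read count relative to its library's total after scaling between libraries) in at least 1 of the 2 libraries. This left 13066 genes of the 54636 rows in the count table, 50320 of which were autosomal, and 11639 of the genes were protein-coding.

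The Cre- CAFs came from the SMA-CreERT2; R26mT/mG; myosin IIAfl/fl line, in which the smooth muscle actin promoter drives the Cre, from an animal labelled as Cre-, and this culture was treated in vitro with 2 µM tamoxifen by the labels, where the methods of the study name the active form, 4-hydroxytamoxifen. Tumors in those transgenic mice were grown from mouse intestinal tumoroids (pVillin-CreERT2; LSL-NICD-nGFP; mT/mG; p53fl/fl, an epithelial line with an inducible active Notch) placed in the interscapular fat pad of irradiated hosts with transplanted bone marrow. Untreated PDX CAFs were the mouse fibroblasts of human rectal tumors engrafted under the scapular skin of female Nude mice, a strain without a thymus, and received no tamoxifen. The labels call both tissues subcutaneous rectal tumor, and both cultures were outgrowths immortalized with SV40 large T-antigen and kept in the same medium. The other 3 libraries served for reference levels, namely myosin IIA KO CAFs (the same transgenic origin with Cre, given tamoxifen), control siRNA PDX CAFs and Fn1 siRNA PDX CAFs. Each condition was 1 library of 1 culture. The tumor, the host strain, its sex, the immune state of the host, the site and the tamoxifen differ together between the 2 cultures and cannot be told apart.

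Fibroblasts keep a record of where in the body they arose. Homeobox genes of the Hox clusters and other regional transcription factors, set in the embryo along the body axis, stay on or off in culture for many passages. CAFs in tumors are also grouped by what they express, as contractile myCAFs that lay down matrix, inflammatory iCAFs that release cytokines and complement, and rarer antigen-presenting CAFs. The matrix they secrete consists of collagens, elastic fibres, proteoglycans and the matricellular proteins that bind them.

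The libraries held 26212033 counts for Cre- CAFs and 22961620 counts for untreated PDX CAFs, and the other 3 held 23351433 to 26596351. There were no replicates, so no test was made, and the 95% intervals cover counting error only. Mitochondrial genes took 1.04% of counts in Cre- CAFs and 0.825% in untreated PDX CAFs. A log2 ratio is that of scaled counts in Cre- CAFs over untreated PDX CAFs, and a gene is called higher or lower where that ratio passes 2-fold. The mesenchymal genes Vim (the filament protein vimentin) and Pdgfrb (a PDGF receptor) were at 3812 and 916 CPM in Cre- CAFs, against 5424 and 429 CPM in untreated PDX CAFs. Other fibroblast markers were low in one of the cultures, with Dcn and Fap at 48 and 5.36 CPM in Cre- CAFs, against 3.51 and 0.466 CPM in untreated PDX CAFs, and Dpp4 had no count in either. Defining genes of other cells were at or near 0. The leukocyte gene Ptprc had no count in either library, the epithelial gene Epcam had 0.23 CPM in Cre- CAFs against 0.127 CPM in untreated PDX CAFs and the endothelial gene Pecam1 had 0.153 CPM in Cre- CAFs against 0.0423 CPM in untreated PDX CAFs. Over whole lists, 16 of 19 immune, 14 of 16 epithelial and 11 of 15 endothelial genes were under 1 CPM in both, and their summed levels were 7.92, 5.32 and 19.4 CPM in Cre- CAFs against 4.02, 12.4 and 17.4 CPM in untreated PDX CAFs. In bulk RNA, fewer cells of a type and less RNA per cell cannot be told apart. Myh9, the target of the knockout, was at 2419 CPM in Cre- and 425 CPM in myosin IIA KO CAFs, against 2161 CPM in untreated, 3416 CPM in control siRNA and 3666 CPM in Fn1 siRNA PDX CAFs, so it was low in the knockout library and close in the 2 cultures compared here.

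Of the 13066 genes, 1419 were over 2-fold higher in Cre- CAFs (10.9%) and 1084 were over 2-fold lower (8.3%). The counts given below for each gene list are to be read against these shares. The median log2 ratio of all genes was -0.03. Beyond 8-fold, 317 genes were higher and 244 were lower. To see whether a difference held in the other libraries of each origin, levels in the 2 libraries of transgenic origin were set beside the 3 of PDX origin. Over all genes, 4173 (31.9%) were above all 3 PDX-origin libraries in both transgenic-origin libraries and 4622 (35.4%) were below all 3. Among the 1419 higher genes, 1286 were separated in this way (90.6%), and among the 1084 lower genes 974 were (89.9%). These counts contain the 2 libraries that define the ratio, so they describe the genes and test nothing. In the pair that shares no library with the comparison, myosin IIA KO over control siRNA PDX CAFs, 13224 genes were compared. Of these, 1906 were higher and 1393 were lower. In both pairs 1013 genes were higher, which is 71.4% of the 1419 and 53.1% of the 1906. For lower genes the number was 724, which is 66.8% of the 1084 and 52% of 1393.

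**Figure D1:**
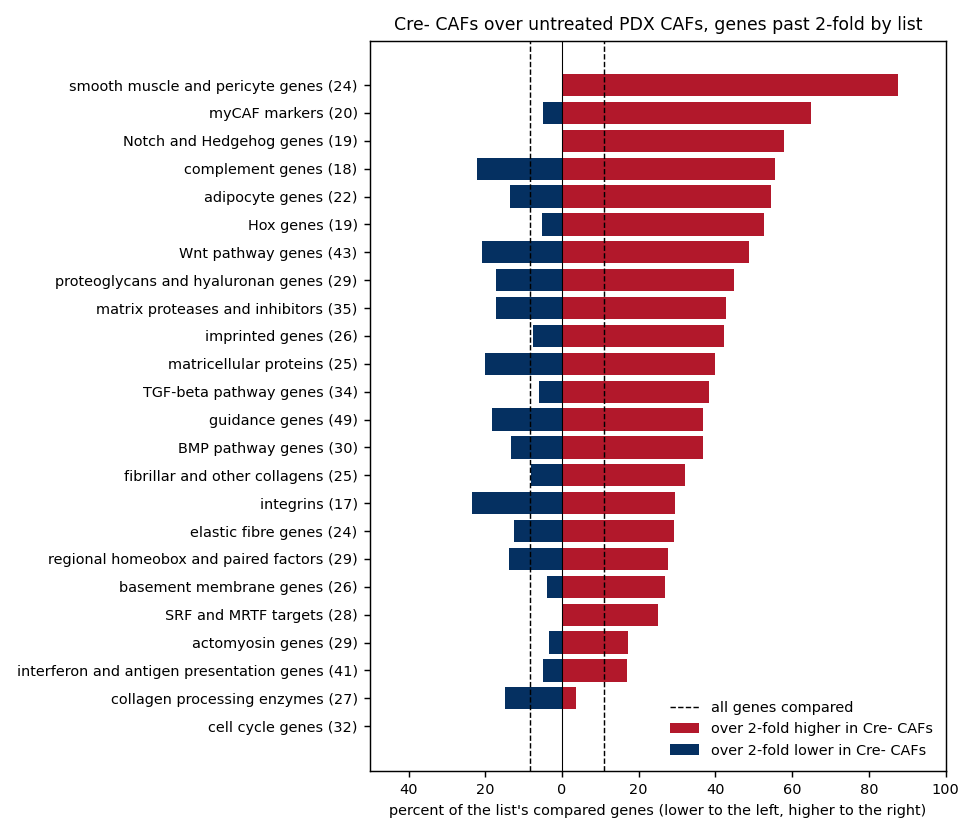
Percent of a list's compared genes over 2-fold higher (bars to the right) or over 2-fold lower (bars to the left) in Cre- CAFs over untreated PDX CAFs. A selection of the 48 lists is shown, with the number of genes in brackets. Lists left out include mesothelial genes (0% higher, 75% lower) and PDGF, VEGF, HGF and IGF genes (21.2% higher, 27.3% lower). Others left out had more higher genes, such as sarcomere and skeletal muscle genes (60% higher, 10% lower). Dashed lines mark 10.9% higher and 8.3% lower over all 13066 genes. Smooth muscle and pericyte genes reached 87.5% higher, while none of the 32 cell cycle genes passed 2-fold.

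Of the 4 CAF markers set for this comparison, 3 were higher and 1 was lower. Acta2, which encodes the αSMA of stress fibres, was at 7727 CPM in Cre- and 3383 CPM in myosin IIA KO CAFs, against 1501 CPM in untreated, 4811 CPM in control siRNA and 5646 CPM in Fn1 siRNA PDX CAFs (log2 ratio 2.36, 95% counting interval 2.35 to 2.38). The control siRNA and Fn1 siRNA PDX CAFs lay between the libraries of transgenic origin, so Acta2 did not separate the origins. Postn, which encodes the matricellular protein periostin, was at 4286 CPM in Cre- and 2675 CPM in myosin IIA KO CAFs, against 958 CPM in untreated, 1248 CPM in control siRNA and 1448 CPM in Fn1 siRNA PDX CAFs (log2 ratio 2.16). Col8a1, a short-chain collagen, was at 994 CPM in Cre- and 591 CPM in myosin IIA KO CAFs, against 206 CPM in untreated, 209 CPM in control siRNA and 233 CPM in Fn1 siRNA PDX CAFs (log2 ratio 2.27). Both were above every PDX-origin library in both libraries of transgenic origin. Thbs2, the matricellular thrombospondin 2, went the other way at 665 CPM in Cre- and 337 CPM in myosin IIA KO CAFs, against 1697 CPM in untreated, 867 CPM in control siRNA and 1035 CPM in Fn1 siRNA PDX CAFs (log2 ratio -1.35), and was highest in untreated PDX CAFs. All 4 were measured well above background in both cultures, and they did not differ in 1 direction.

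Smooth muscle and pericyte genes made up the list with the largest share of higher genes, 21 of 24 with none lower and a median log2 ratio of 2.00. The summed level of the list was 13490 CPM in Cre- and 7624 CPM in myosin IIA KO CAFs, against 3985 CPM in untreated, 8882 CPM in control siRNA and 10170 CPM in Fn1 siRNA PDX CAFs. Myh11, the myosin heavy chain of smooth muscle, had 25.6 CPM in Cre- and 7.38 CPM in myosin IIA KO CAFs, against 0.169 CPM in untreated, 2.08 CPM in control siRNA and 1.85 CPM in Fn1 siRNA PDX CAFs (log2 ratio 7.08, 95% counting interval 5.88 to 9.12). Mylk, the kinase that activates myosin light chains, had 112 CPM in Cre- and 46.8 CPM in myosin IIA KO CAFs, against 3.26 CPM in untreated, 3.42 CPM in control siRNA and 4.37 CPM in Fn1 siRNA PDX CAFs (log2 ratio 5.09). Actg2, the actin of enteric smooth muscle, had 219 CPM in Cre- and 50.1 CPM in myosin IIA KO CAFs, against 5.12 CPM in untreated, 36.4 CPM in control siRNA and 39.6 CPM in Fn1 siRNA PDX CAFs (log2 ratio 5.41). These 3 genes were above all PDX-origin libraries in both libraries of transgenic origin, and lower in the knockout than in the Cre- library. The pericyte proteoglycan gene Cspg4 had 17.8 CPM in Cre- CAFs against 0.932 CPM in untreated PDX CAFs and Notch3, the Notch receptor of mural cells, had 110.1 CPM in Cre- CAFs against 24.8 CPM in untreated PDX CAFs. Of the 21 higher genes, 6 overlapped with the siRNA libraries. Cnn1, which encodes the actin-binding calponin of smooth muscle, showed this at 389 CPM in Cre- and 114 CPM in myosin IIA KO CAFs, against 95.7 CPM in untreated, 233 CPM in control siRNA and 274 CPM in Fn1 siRNA PDX CAFs, and so did Tpm1, a tropomyosin, at 1265 CPM in Cre- and 789 CPM in myosin IIA KO CAFs, against 619 CPM in untreated, 1239 CPM in control siRNA and 1399 CPM in Fn1 siRNA PDX CAFs. Tagln, which encodes the actin-binding transgelin, was at 12.7 CPM in Cre- CAFs against 1.74 CPM in untreated PDX CAFs, and 67.9% of its exon length overlaps another gene, so its count is uncertain. Acta1, Acta2 and Actg2 are near-identical copies whose reads could be split between them.

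In the myCAF list, 13 of 20 genes were higher and 1, Thbs2, was lower, with a median log2 ratio of 1.61. Of the 13, 7 overlapped with a siRNA library of PDX origin. Itga11, the collagen-binding integrin of myofibroblasts, was among those that did not, at 158 CPM in Cre- and 146 CPM in myosin IIA KO CAFs, against 12.7 CPM in untreated, 13.8 CPM in control siRNA and 18.6 CPM in Fn1 siRNA PDX CAFs. Ctgf, a matricellular target of YAP and TGF-beta, had 1326 CPM in Cre- and 737 CPM in myosin IIA KO CAFs, against 290.4 CPM in untreated, 1859 CPM in control siRNA and 2245 CPM in Fn1 siRNA PDX CAFs, so untreated PDX CAFs were the lowest of the 5 and the transfected PDX CAFs were the highest. Exons of Ctgf overlap another gene over 23.2% of their length. The 2 transfected cultures received an siRNA and its lipid reagent, which the untreated one did not. Whether these cultures also differ in other ways is not given, and the part of any such difference in the contractile genes was not tested.

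Serum response factor (SRF) and its actin-sensing partner MRTF act through the CArG box, a pair of C bases, a run of A and T bases and a pair of G bases. Of 28 compared SRF and MRTF target genes, 7 were higher and none was lower, with a median log2 ratio of 0.47, and 5 of the 7 overlapped with PDX-origin libraries. For Cre- over control siRNA PDX CAFs, 1 was higher and 2 were lower. Promoter sequence from RefSeq (GRCm38.p6, 250 bases before to 50 after the start site) was at hand for 23 of them, and 8 held a CArG box on either strand, against 1.63% of all promoters in the table. Both strands were searched, and no other motif was. Of those 8, 1 was higher, and of the 15 without a match 5 were higher. The promoters of Myl9, Cnn2 and Lima1 are shown because each holds 1 CArG box, in capitals, while the genes differed in ratio. Myl9 (chr2:156775214-156775513, plus strand) has the box from position -161, Cnn2 (chr10:79988350-79988649, plus strand) from -56 and Lima1 (chr15:99820100-99820399, minus strand) from -47, counted from the start site.
Myl9: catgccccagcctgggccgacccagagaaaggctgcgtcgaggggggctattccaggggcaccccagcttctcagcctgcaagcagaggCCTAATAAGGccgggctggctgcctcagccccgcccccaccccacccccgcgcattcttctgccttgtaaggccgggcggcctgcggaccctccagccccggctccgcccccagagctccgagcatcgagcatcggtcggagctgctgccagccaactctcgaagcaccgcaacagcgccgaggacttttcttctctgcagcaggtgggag
Cnn2: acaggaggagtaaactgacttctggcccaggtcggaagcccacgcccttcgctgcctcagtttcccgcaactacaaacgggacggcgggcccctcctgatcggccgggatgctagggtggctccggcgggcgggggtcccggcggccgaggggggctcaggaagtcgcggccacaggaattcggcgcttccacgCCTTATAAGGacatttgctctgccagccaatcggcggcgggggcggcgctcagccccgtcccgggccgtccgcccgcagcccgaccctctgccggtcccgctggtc
Lima1: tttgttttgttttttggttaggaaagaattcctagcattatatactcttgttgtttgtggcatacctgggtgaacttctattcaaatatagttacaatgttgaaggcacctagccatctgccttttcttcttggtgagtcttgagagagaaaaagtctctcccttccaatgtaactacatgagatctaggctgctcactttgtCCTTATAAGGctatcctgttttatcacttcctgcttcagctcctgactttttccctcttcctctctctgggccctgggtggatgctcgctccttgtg
Myl9, a myosin regulatory light chain, had 948 CPM in Cre- and 471 CPM in myosin IIA KO CAFs, against 166 CPM in untreated, 497 CPM in control siRNA and 596 CPM in Fn1 siRNA PDX CAFs. Cnn2, a calponin of non-muscle cells, had 1037 CPM in Cre- CAFs against 570.0 CPM in untreated PDX CAFs and Lima1, which cross-links actin filaments, had 439.6 CPM in Cre- CAFs against 419 CPM in untreated PDX CAFs. Of the 3, only Myl9 passed 2-fold, and it overlapped with the siRNA libraries. No CArG box was found in the promoter windows of 18 smooth muscle and pericyte genes, which says only that these letters are not in the window.

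Hox genes, which mark position along the body axis, were mostly higher in Cre- CAFs. Of 39 autosomal Hox genes, 19 were compared and 20 were under 1 CPM in both cultures. Of the 19, 10 were higher, 1 was lower and the median log2 ratio was 1.06. Groups 1 to 9 summed to 192 CPM in Cre- and 238 CPM in myosin IIA KO CAFs, against 108 CPM in untreated, 103 CPM in control siRNA and 100.6 CPM in Fn1 siRNA PDX CAFs. The posterior groups 10 to 13, which are used in the hindquarters and the distal limb, had 1 of 12 genes at 1 CPM. That gene was Hoxc13, at 4.25 CPM in Cre- CAFs against 2.75 CPM in untreated PDX CAFs.

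The 4 largest ratios lay side by side in the HoxB cluster on chromosome 11. Of these, Hoxb5, Hoxb7 and Hoxb8 passed the filter of 1 CPM through Cre- CAFs alone, so a ratio above 0 was fixed for them. Hoxb5 was at 1.11 CPM in Cre- and 1.63 CPM in myosin IIA KO CAFs, against 0.212 CPM in untreated, 0.154 CPM in control siRNA and 0.0901 CPM in Fn1 siRNA PDX CAFs (log2 ratio 2.28). Hoxb6 was at 4.09 CPM in Cre- and 3.47 CPM in myosin IIA KO CAFs, against 1.02 CPM in untreated, 0.654 CPM in control siRNA and 0.631 CPM in Fn1 siRNA PDX CAFs (log2 ratio 1.99). Hoxb7 was at 1.42 CPM in Cre- and 1.27 CPM in myosin IIA KO CAFs, against 0.0423 CPM in untreated, 0 CPM in control siRNA and 0.045 CPM in Fn1 siRNA PDX CAFs, with 1 count in untreated PDX CAFs (log2 ratio 4.52, 95% counting interval 2.50 to 10.40). These neighbours in the middle of the cluster were at low levels in both libraries of transgenic origin and lower in all 3 of PDX origin, and so was the next gene, Hoxb8, at 3.56 CPM in Cre- and 3.65 CPM in myosin IIA KO CAFs, against 0.762 CPM in untreated, 0.385 CPM in control siRNA and 0.496 CPM in Fn1 siRNA PDX CAFs (log2 ratio 2.19). Hoxb3, Hoxb9, Hoxa2, Hoxa3, Hoxa5 and Hoxd9 were also higher, with log2 ratios of 1.16, 1.23, 1.34, 1.13, 1.06 and 1.14. The exons of Hoxb3, Hoxa3 and Hoxb2 overlap other genes over 52.9%, 27.1% and 27.3% of their length, so these counts are less certain. Hoxd8, of the HoxD cluster, did not pass 2-fold at 50.7 CPM in Cre- and 57.3 CPM in myosin IIA KO CAFs, against 31.5 CPM in untreated, 33.8 CPM in control siRNA and 32.6 CPM in Fn1 siRNA PDX CAFs. Hoxc6 alone was lower, at 0.459 CPM in Cre- and 0.325 CPM in myosin IIA KO CAFs, against 2.67 CPM in untreated, 1.58 CPM in control siRNA and 1.44 CPM in Fn1 siRNA PDX CAFs. Hoxa4, Hoxa6, Hoxa7, Hoxb2 and Hoxb4 had log2 ratios of 0.59, 0.20, 0.27, 0.38 and 0.63 and did not pass 2-fold. Of the 19 genes, 16 were above all PDX-origin libraries in both libraries of transgenic origin and 1 was below. Over all genes the shares were 31.9% and 35.4%. Hoxc6 passed the filter through untreated PDX CAFs alone, as Hoxb5, Hoxb7 and Hoxb8 did through Cre- CAFs, so these counts describe the genes and test nothing. Meis1, a cofactor that binds DNA with Hox proteins, was at 19.4 CPM in Cre- CAFs against 33.5 CPM in untreated PDX CAFs and did not pass 2-fold.

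**Figure D2:**
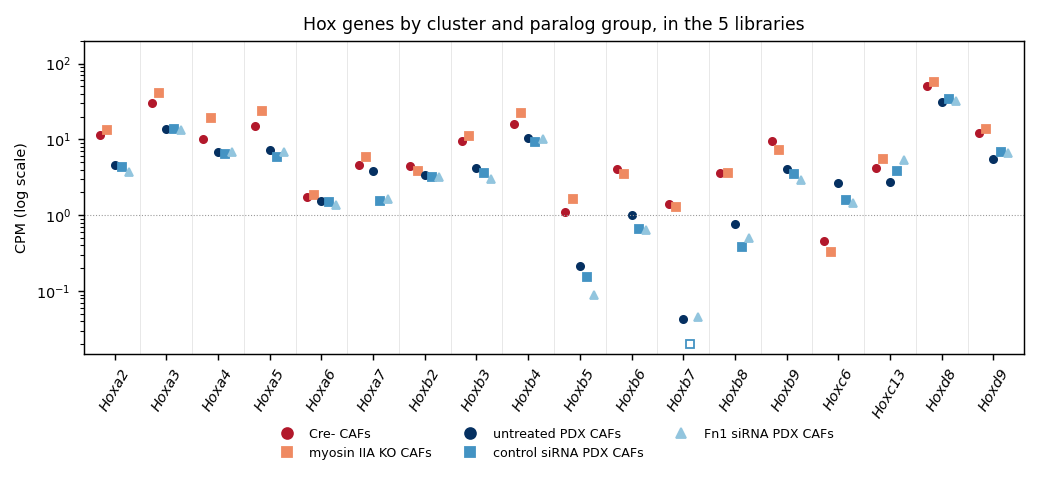
Level (CPM, log scale) of 18 of the 19 Hox genes compared, ordered by cluster and paralog group, in the 5 libraries. Circles, squares and triangles are single libraries, red and orange for transgenic-mouse origin and blue for PDX origin, and an open symbol at the bottom marks a count of 0. Hoxb5 to Hoxb8 lie above the PDX-origin libraries in both libraries of transgenic origin, and Hoxc6 lies below.

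Zic1 and Zic4, neighbouring zinc-finger genes of the dorsal trunk on chromosome 9, were measured in one culture and near 0 in the other. Zic1 (91358058 to 91365810) was at 41.8 CPM in Cre- and 40.8 CPM in myosin IIA KO CAFs, against 0.466 CPM in untreated, 0.269 CPM in control siRNA and 0.225 CPM in Fn1 siRNA PDX CAFs (log2 ratio 6.43, 95% counting interval 5.64 to 7.49). Zic4 (91362413 to 91389348) had 95 counts in Cre- CAFs and none in untreated PDX CAFs, which makes it at least 28.6-fold higher, and it was at 3.63 CPM in Cre- and 2.82 CPM in myosin IIA KO CAFs, against 0 CPM in untreated, 0.0769 CPM in control siRNA and 0 CPM in Fn1 siRNA PDX CAFs. Neither gene reached 1 CPM in a library of PDX origin. Their promoters are shown because the 2 genes differed together, with CG dinucleotides, the sites of DNA methylation, in capitals.
Zic1: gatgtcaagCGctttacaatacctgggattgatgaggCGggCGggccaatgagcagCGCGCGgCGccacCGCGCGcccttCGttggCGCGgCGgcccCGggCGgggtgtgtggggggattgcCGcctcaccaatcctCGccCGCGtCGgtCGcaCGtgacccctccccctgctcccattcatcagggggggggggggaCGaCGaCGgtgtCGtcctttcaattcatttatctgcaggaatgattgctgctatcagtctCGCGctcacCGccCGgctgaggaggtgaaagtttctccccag
Zic4: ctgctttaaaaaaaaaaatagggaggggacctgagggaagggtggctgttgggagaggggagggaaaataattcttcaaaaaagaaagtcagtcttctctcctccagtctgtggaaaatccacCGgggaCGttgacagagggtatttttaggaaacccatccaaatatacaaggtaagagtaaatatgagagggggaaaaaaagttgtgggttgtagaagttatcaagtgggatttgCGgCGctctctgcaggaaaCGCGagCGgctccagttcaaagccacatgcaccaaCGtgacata
The RefSeq window of Zic1 (chr9:91365719-91366018, minus strand) holds 31 CG dinucleotides and that of Zic4 (chr9:91368722-91369021, plus strand) holds 8, against a median of 23 over 9475 compared genes with a promoter in the table. Methylation was not measured here.

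Among 29 regional homeobox and paired factors, 8 were higher (27.6%, against 10.9% of all genes) and 4 were lower (13.8%, against 8.3%). Alx4, a factor of the limb bud and the skull, was at 0.191 CPM in Cre- and 0.217 CPM in myosin IIA KO CAFs, against 4.49 CPM in untreated, 3.81 CPM in control siRNA and 2.3 CPM in Fn1 siRNA PDX CAFs (log2 ratio -4.41). Pax9, a factor of the pharyngeal pouches and the sclerotome, was at 0.0765 CPM in Cre- CAFs against 1.14 CPM in untreated PDX CAFs (log2 ratio -3.59, 95% counting interval -7.02 to -1.91), on 2 and 27 counts. Mkx, the homeobox factor of tendon, was at 1.03 CPM in Cre- CAFs against 7.2 CPM in untreated PDX CAFs. These 3 were below all PDX-origin libraries in both libraries of transgenic origin. Irx1, a patterning factor of the iroquois family, had 67.2 CPM in Cre- CAFs against 21.8 CPM in untreated PDX CAFs. En1, which marks dorsal dermal fibroblast precursors and is named after its values were seen, was at 24.9 CPM in Cre- CAFs against 10.9 CPM in untreated PDX CAFs. The nuclear receptor Nr2f2 was at 71.2 CPM in Cre- CAFs against 66.1 CPM in untreated PDX CAFs and differed little.

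T-box factors pattern limbs and body wall. Of 16, 6 were compared, 3 were higher and 1 was lower. Tbx15, a factor of dorsal skin and trunk fat, was nearly equal at 191 CPM in Cre- and 168 CPM in myosin IIA KO CAFs, against 170.3 CPM in untreated, 133 CPM in control siRNA and 127 CPM in Fn1 siRNA PDX CAFs (log2 ratio 0.16). Tbx18, a factor of mural cell precursors and of the dermal papilla, was at 68.6 CPM in Cre- and 76.7 CPM in myosin IIA KO CAFs, against 22.7 CPM in untreated, 34.5 CPM in control siRNA and 30.2 CPM in Fn1 siRNA PDX CAFs (log2 ratio 1.60). Tbx2 was at 7.38 CPM in Cre- CAFs against 1.36 CPM in untreated PDX CAFs and Tbx6 at 1.45 CPM in Cre- CAFs against 0.254 CPM in untreated PDX CAFs, both higher in Cre- CAFs. Tbx3, a limb and mammary factor related to Tbx2, was lower at 3.71 CPM in Cre- and 3.65 CPM in myosin IIA KO CAFs, against 8.72 CPM in untreated, 14.7 CPM in control siRNA and 12.7 CPM in Fn1 siRNA PDX CAFs. Mga, a T-box protein that is also a Max partner, was at 60.1 CPM in Cre- CAFs against 69.3 CPM in untreated PDX CAFs. Tbx5, the forelimb factor, had no count in either culture, and Tbx4, the hindlimb factor, had 1 count in Cre- CAFs and 0 in untreated PDX CAFs.

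Retinoic acid sets Hox expression along the axis, and its enzymes were listed with the Hox cofactors. Of the 14 genes compared in that list, 4 were higher, all of them enzymes of retinoic acid, none was lower and the median log2 ratio was 0.20. Aldh1a3, which makes retinoic acid, had 19.4 CPM in Cre- and 61.2 CPM in myosin IIA KO CAFs, against 0.296 CPM in untreated, 0.5 CPM in control siRNA and 0.315 CPM in Fn1 siRNA PDX CAFs (log2 ratio 5.94). Its relative Aldh1a1 had 14 CPM in Cre- CAFs against 0.635 CPM in untreated PDX CAFs. Cyp26b1, which degrades retinoic acid, had 67 CPM in Cre- and 109 CPM in myosin IIA KO CAFs, against 3.9 CPM in untreated, 2.46 CPM in control siRNA and 3.2 CPM in Fn1 siRNA PDX CAFs (log2 ratio 4.10). These 3 were above the PDX-origin libraries in both libraries of transgenic origin. Aldh1a2, which also makes retinoic acid, overlapped at 1.8 CPM in Cre- and 0 CPM in myosin IIA KO CAFs, against 0.593 CPM in untreated, 0.385 CPM in control siRNA and 0.901 CPM in Fn1 siRNA PDX CAFs (log2 ratio 1.57).

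Of 39 broader mesenchymal lineage factors, 11 were higher and 8 were lower, both above the shares of 10.9% and 8.3% over all genes. Klf5, an epithelial and smooth muscle factor, was at 0.574 CPM in Cre- and 0.542 CPM in myosin IIA KO CAFs, against 9.27 CPM in untreated, 30.7 CPM in control siRNA and 27.3 CPM in Fn1 siRNA PDX CAFs. Runx3, a factor of bone and immune cells, was at 6.85 CPM in Cre- CAFs against 30.6 CPM in untreated PDX CAFs while its paralog Runx1, a blood and mesenchyme factor, was at 71.9 CPM in Cre- CAFs against 14.8 CPM in untreated PDX CAFs. Gata4, a factor of heart and coelomic mesoderm, was lower at 2.95 CPM in Cre- and 1.92 CPM in myosin IIA KO CAFs, against 12.1 CPM in untreated, 11.8 CPM in control siRNA and 10.2 CPM in Fn1 siRNA PDX CAFs. Sox9, the factor of cartilage precursors, was at 129 CPM in Cre- and 204 CPM in myosin IIA KO CAFs, against 42.8 CPM in untreated, 36.2 CPM in control siRNA and 31.1 CPM in Fn1 siRNA PDX CAFs. Klf2, a factor of quiescent and flow-exposed cells, was at 89.7 CPM in Cre- CAFs against 22.4 CPM in untreated PDX CAFs. Prrx1, a general factor of limb and body wall mesenchyme, had 704 CPM in Cre- CAFs against 393 CPM in untreated PDX CAFs and did not pass 2-fold.

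Adipocyte genes differed in both directions. Of 22 compared, 12 were higher, 3 were lower and 7 were within 2-fold. The higher ones included several genes of mature fat cells. Adipoq, which encodes the fat hormone adiponectin, had 18.9 CPM in Cre- and 159 CPM in myosin IIA KO CAFs, against 0 CPM in untreated, 0 CPM in control siRNA and 0 CPM in Fn1 siRNA PDX CAFs, at least 148-fold higher. Plin1, the coat protein of lipid droplets, had 36.6 CPM in Cre- and 314 CPM in myosin IIA KO CAFs, against 0.212 CPM in untreated, 0.0769 CPM in control siRNA and 0.0901 CPM in Fn1 siRNA PDX CAFs (log2 ratio 7.30). Cd36, which takes up fatty acids, had 496 counts in Cre- CAFs and 1 count in untreated PDX CAFs (log2 ratio 8.25, 95% counting interval 6.32 to 14.11). Cebpa and Pparg, the paired transcription factors of fat cells, had 148 and 108 CPM in Cre- CAFs, against 12.2 and 41.9 CPM in untreated PDX CAFs. Both are named after their values were seen. Retn, which encodes the fat-cell hormone resistin, had 92 counts in Cre- CAFs and none in the 3 PDX-origin libraries, at least 27.7-fold higher. In each of the higher genes named here the myosin IIA KO library was higher than the Cre- library, and the PDX-origin libraries were the lowest. The 3 lower genes were ones that make fatty acids. Scd1, a desaturase, had 175 CPM in Cre- and 654 CPM in myosin IIA KO CAFs, against 552 CPM in untreated, 300.3 CPM in control siRNA and 286 CPM in Fn1 siRNA PDX CAFs, and Fasn, the fatty acid synthase, had 327 CPM in Cre- and 662 CPM in myosin IIA KO CAFs, against 779 CPM in untreated, 565 CPM in control siRNA and 568 CPM in Fn1 siRNA PDX CAFs. The myosin IIA KO library was above untreated PDX CAFs for Scd1 and between the PDX-origin libraries for Fasn, so neither separated the origins. Acaca, which starts fatty acid synthesis, was also over 2-fold lower and was below all 3 PDX-origin libraries in both libraries of transgenic origin. Over the 25 adipocyte genes, the summed level was 2085 CPM in Cre- CAFs against 2336 CPM in untreated PDX CAFs, so the sum did not follow the count of genes. Of 7 brown and beige fat genes compared, 3 were higher and 1 was lower. Ucp1, the heat-producing carrier of brown fat, had no count in either culture, and the brown fat regulator Prdm16 was at 4.25 CPM in Cre- CAFs against 0.212 CPM in untreated PDX CAFs.

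The regulators that define skeletal muscle were at or near 0. Myod1, Myog and Pax7, the master genes of muscle and its stem cells, had 0 counts in Cre- CAFs, and untreated PDX CAFs had 1 count of Myod1 and 0 of the other genes. Of 33 sarcomere genes, 23 were under 1 CPM in both, and of the 10 compared, 6 were higher, 2 of them overlapping with PDX-origin libraries, and Ryr1, the calcium release channel of skeletal muscle, was lower at 0.421 CPM in Cre- CAFs against 1.14 CPM in untreated PDX CAFs. Myom1, a protein of the sarcomere M-line, was at 20.7 CPM in Cre- CAFs against 0.932 CPM in untreated PDX CAFs and Acta1, the skeletal muscle actin, was at 85.4 CPM in Cre- and 32.7 CPM in myosin IIA KO CAFs, against 6.44 CPM in untreated, 34.9 CPM in control siRNA and 39.7 CPM in Fn1 siRNA PDX CAFs. Mef2c, a muscle and mesoderm factor, was at 12.8 CPM in Cre- CAFs against 0.254 CPM in untreated PDX CAFs. Of 15 tendon genes 6 were higher and 3 were lower, and of 12 cartilage and bone genes 6 were higher and 1 was lower. Alpl, the alkaline phosphatase of bone, had 9.83 CPM in Cre- and 74.7 CPM in myosin IIA KO CAFs, against 0.466 CPM in untreated, 0.462 CPM in control siRNA and 0.901 CPM in Fn1 siRNA PDX CAFs. Fmod, which encodes the tendon proteoglycan fibromodulin, had 62.7 CPM in Cre- CAFs against 2.67 CPM in untreated PDX CAFs and Pth1r, the parathyroid hormone receptor of bone and fat precursors, had 42.2 CPM in Cre- CAFs against 1.06 CPM in untreated PDX CAFs, while Ptgis, the prostacyclin synthase, had 4.63 CPM in Cre- CAFs against 64.2 CPM in untreated PDX CAFs.

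**Figure D3:**
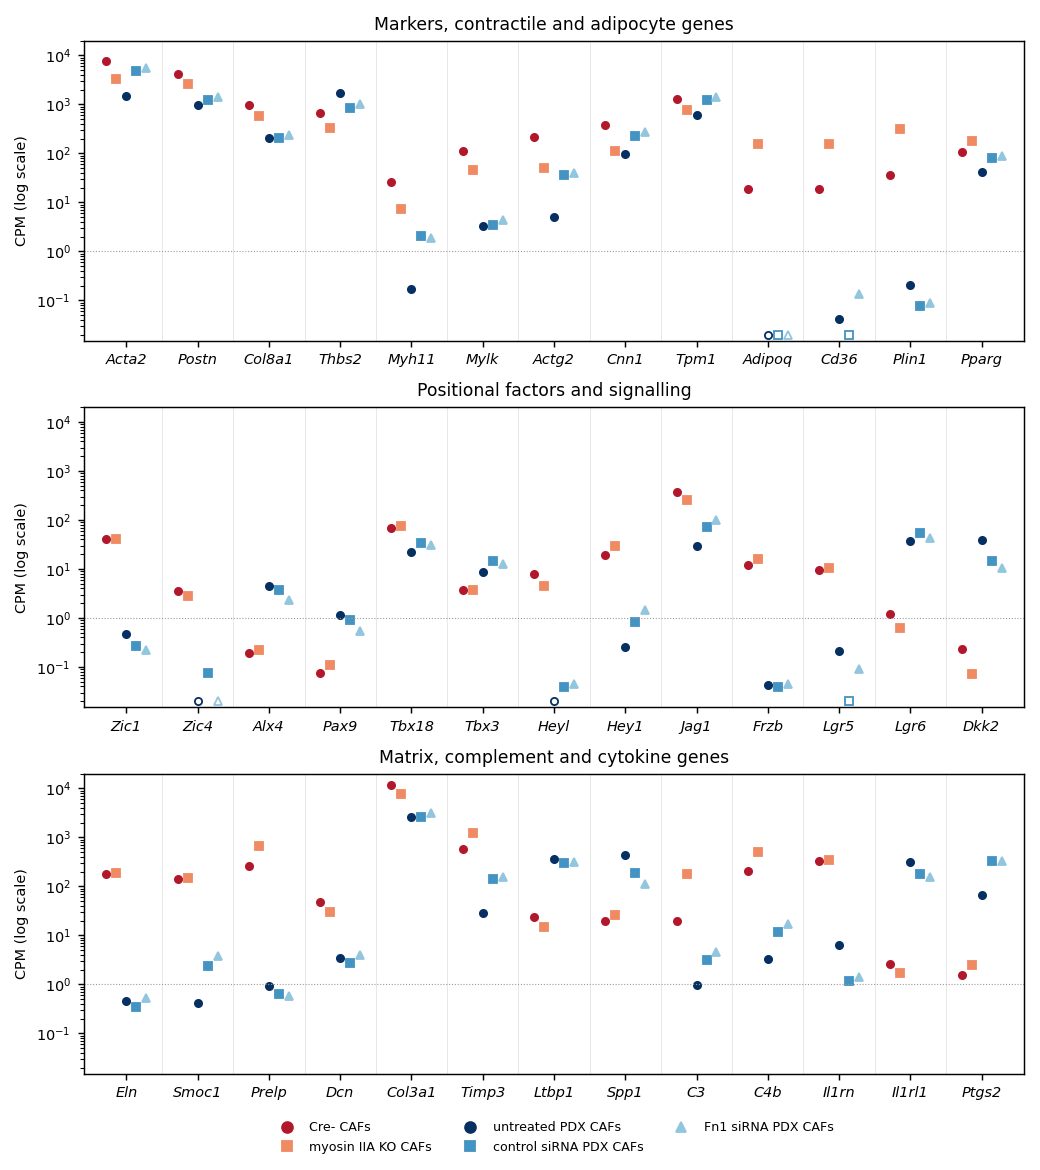
Levels (CPM, log scale) of 39 genes in the 5 libraries, in panels for markers, contractile and adipocyte genes (top), positional factors and signalling genes (middle) and matrix, complement and cytokine genes (bottom). Each symbol is 1 library, red and orange for transgenic-mouse origin and blue for PDX origin, and an open symbol at the bottom marks a count of 0. Acta2, Cnn1 and Tpm1 overlap between the origins, whereas Zic1, Eln, Frzb and Dkk2 do not.

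General fibroblast markers differed in both directions. Of 20, 8 were higher and 5 were lower, with a median log2 ratio of 0.03. Cd34, a marker of adventitial fibroblasts and stem cells, was at 6.54 CPM in Cre- and 3 CPM in myosin IIA KO CAFs, against 117 CPM in untreated, 44.2 CPM in control siRNA and 49.3 CPM in Fn1 siRNA PDX CAFs (log2 ratio -4.15). Dcn, the collagen-binding proteoglycan decorin, was at 48 CPM in Cre- and 30.5 CPM in myosin IIA KO CAFs, against 3.51 CPM in untreated, 2.77 CPM in control siRNA and 3.92 CPM in Fn1 siRNA PDX CAFs (log2 ratio 3.76), and Fap, the fibroblast activation protein, at 5.36 CPM in Cre- CAFs against 0.466 CPM in untreated PDX CAFs. Thy1, a surface protein of fibroblasts, was at 768 CPM in Cre- CAFs against 283 CPM in untreated PDX CAFs and Pdgfra, a PDGF receptor, at 338 CPM in Cre- CAFs against 218 CPM in untreated PDX CAFs. Of 23 iCAF markers, 10 were higher and 5 were lower, and 2 of the 10 and 1 of the 5 overlapped with libraries of the other origin. Cxcl12, the chemokine that attracts blood stem cells and lymphocytes, was at 747 CPM in Cre- and 1147 CPM in myosin IIA KO CAFs, against 47.5 CPM in untreated, 56.3 CPM in control siRNA and 65.3 CPM in Fn1 siRNA PDX CAFs (log2 ratio 3.97). Ccl7, which attracts monocytes, was lower at 60.3 CPM in Cre- and 53.6 CPM in myosin IIA KO CAFs, against 149 CPM in untreated, 185 CPM in control siRNA and 179 CPM in Fn1 siRNA PDX CAFs. Of the 14 markers of antigen-presenting CAFs, 11 were under 1 CPM in both, and Slpi, a protease inhibitor of epithelia and mesothelium, was at 0.153 CPM in Cre- CAFs against 3.22 CPM in untreated PDX CAFs.

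A few genes of other cell types were read as well, since single markers can be on in fibroblasts. Nes, which encodes the filament protein nestin of progenitor and glial cells, was at 9.56 CPM in Cre- and 8.9 CPM in myosin IIA KO CAFs, against 118 CPM in untreated, 246 CPM in control siRNA and 220.0 CPM in Fn1 siRNA PDX CAFs (log2 ratio -3.62). Bnc1, a zinc-finger factor of mesothelium and keratinocytes, had no count in Cre- CAFs and 163 counts in untreated PDX CAFs, at least 60.1-fold lower. Of 4 mesothelial genes compared 3 were lower, and their list summed to 41.7 CPM in Cre- CAFs against 74.7 CPM in untreated PDX CAFs. Krt19, a keratin of simple epithelia and mesothelium, was among them at 3.63 CPM in Cre- CAFs against 10 CPM in untreated PDX CAFs. Kdr and Tek, receptors of the endothelium, were at 0.574 and 7.84 CPM in Cre- CAFs, against 4.74 and 1.06 CPM in untreated PDX CAFs, and Csf1r, a receptor of macrophages, was at 4.48 CPM in Cre- CAFs against 1.23 CPM in untreated PDX CAFs. All of these genes but Bnc1 were counted in both libraries.

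Of 25 fibrillar and other collagen genes, 8 were higher and 2 were lower, with a median log2 ratio of 0.87. Col1a1 and Col1a2, the chains of type I collagen, had 20909 and 14183 CPM in Cre- CAFs, against 10768 and 7138 CPM in untreated PDX CAFs, just under 2-fold. Col3a1, the fibrillar collagen of soft tissues and early scar, had 11573 CPM in Cre- and 7810.3 CPM in myosin IIA KO CAFs, against 2632 CPM in untreated, 2677 CPM in control siRNA and 3125 CPM in Fn1 siRNA PDX CAFs (log2 ratio 2.14). Col8a2, the partner chain of Col8a1, had 169 CPM in Cre- and 214 CPM in myosin IIA KO CAFs, against 3.64 CPM in untreated, 6.65 CPM in control siRNA and 9.78 CPM in Fn1 siRNA PDX CAFs (log2 ratio 5.53). Col15a1, which lies at basement membranes, had 563 CPM in Cre- CAFs against 89.1 CPM in untreated PDX CAFs, and Col14a1, a collagen on the fibril surface, had 7.84 CPM in Cre- CAFs against 0.296 CPM in untreated PDX CAFs. The 2 lower genes were Col7a1, the anchoring fibril collagen of skin, with 10.6 CPM in Cre- CAFs against 45.3 CPM in untreated PDX CAFs, and Col11a1, a collagen of cartilage and tendon, with 16.5 CPM in Cre- CAFs against 43.4 CPM in untreated PDX CAFs. Of 27 enzymes that process collagen, 22 were within 2-fold. Only 1 was higher (3.7%, against 10.9% of all genes) and 4 were lower (14.8%, against 8.3%). Adamts2, which trims procollagen, had 471 CPM in Cre- CAFs against 133 CPM in untreated PDX CAFs, and its relatives Adamts3 and Adamts14 had 0.268 and 13.2 CPM in Cre- CAFs, against 3.56 and 59.4 CPM in untreated PDX CAFs. Lox, the main collagen cross-linking enzyme, had 4191 CPM in Cre- CAFs against 2539.6 CPM in untreated PDX CAFs, and Loxl4, of the same family, had 42.9 CPM in Cre- CAFs against 202 CPM in untreated PDX CAFs.

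Of 24 elastic fibre genes, 7 were higher and 3 were lower. Eln, which encodes elastin, was at 176 CPM in Cre- and 185 CPM in myosin IIA KO CAFs, against 0.466 CPM in untreated, 0.346 CPM in control siRNA and 0.541 CPM in Fn1 siRNA PDX CAFs (log2 ratio 8.50, 95% counting interval 7.72 to 9.57). Mfap4 and Mfap5, microfibril proteins that associate with elastin, were at 5.24 and 131 CPM in Cre- CAFs, against 0 and 10.1 CPM in untreated PDX CAFs, and Fbn1, the fibrillin of microfibrils, was at 1273 CPM in Cre- CAFs against 539 CPM in untreated PDX CAFs. Mfap4 was at least 41.3-fold higher. The latent TGF-beta binding proteins, which fix TGF-beta to microfibrils, differed in opposite directions. Ltbp2, which binds microfibrils, was at 930.5 CPM in Cre- and 1496 CPM in myosin IIA KO CAFs, against 147 CPM in untreated, 339.7 CPM in control siRNA and 428 CPM in Fn1 siRNA PDX CAFs. Ltbp1, which binds latent TGF-beta, was at 23.7 CPM in Cre- and 15.2 CPM in myosin IIA KO CAFs, against 357 CPM in untreated, 301 CPM in control siRNA and 314 CPM in Fn1 siRNA PDX CAFs. Both were separated between the origins. Fn1, which encodes fibronectin, was at 7521 CPM in Cre- and 6905 CPM in myosin IIA KO CAFs, against 4129.5 CPM in untreated, 4778 CPM in control siRNA and 1282 CPM in Fn1 siRNA PDX CAFs, and the Fn1 siRNA library was the lowest.

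Among 29 proteoglycan and hyaluronan genes, 13 were higher and 5 were lower. Prelp, a leucine-rich proteoglycan that anchors basement membrane to collagen, was at 262 CPM in Cre- and 681 CPM in myosin IIA KO CAFs, against 0.932 CPM in untreated, 0.654 CPM in control siRNA and 0.586 CPM in Fn1 siRNA PDX CAFs (log2 ratio 8.11). Cemip, which binds and breaks down hyaluronan, was at 407 CPM in Cre- and 412 CPM in myosin IIA KO CAFs, against 6.73 CPM in untreated, 7.89 CPM in control siRNA and 10.1 CPM in Fn1 siRNA PDX CAFs (log2 ratio 5.91). Aspn, a decorin relative, was at 541 CPM in Cre- CAFs against 177 CPM in untreated PDX CAFs and Podn, of the same wider family, was at 34.8 CPM in Cre- CAFs against 1.4 CPM in untreated PDX CAFs. Vcan and Has2 were lower. Vcan, which encodes the large proteoglycan versican, was at 151 CPM in Cre- and 187 CPM in myosin IIA KO CAFs, against 392 CPM in untreated, 192 CPM in control siRNA and 175 CPM in Fn1 siRNA PDX CAFs. Has2, a hyaluronan synthase, was at 8.23 CPM in Cre- and 10.3 CPM in myosin IIA KO CAFs, against 18.9 CPM in untreated, 53.8 CPM in control siRNA and 53.7 CPM in Fn1 siRNA PDX CAFs. Vcan overlapped between the origins, whereas Has2 was below all PDX-origin libraries in both libraries of transgenic origin.

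Of 25 matricellular genes 10 were higher, 3 of them overlapping between the origins, and 5 were lower, 1 of them overlapping, and of 26 basement membrane genes 7 were higher and 1 was lower. Smoc1, a calcium-binding protein of basement membranes, was at 139 CPM in Cre- and 148 CPM in myosin IIA KO CAFs, against 0.423 CPM in untreated, 2.35 CPM in control siRNA and 3.74 CPM in Fn1 siRNA PDX CAFs (log2 ratio 8.29, 95% counting interval 7.48 to 9.42). Lama1, the laminin alpha chain of early embryonic basement membranes, was at 24.9 CPM in Cre- and 4.99 CPM in myosin IIA KO CAFs, against 0.339 CPM in untreated, 0.115 CPM in control siRNA and 0.0901 CPM in Fn1 siRNA PDX CAFs. Spp1, which encodes osteopontin, was lower at 20 CPM in Cre- and 25.7 CPM in myosin IIA KO CAFs, against 448 CPM in untreated, 189 CPM in control siRNA and 113 CPM in Fn1 siRNA PDX CAFs (log2 ratio -4.48). Nov, a relative of Ctgf, was at 161 CPM in Cre- and 65.6 CPM in myosin IIA KO CAFs, against 10 CPM in untreated, 5 CPM in control siRNA and 5.99 CPM in Fn1 siRNA PDX CAFs, and Cyr61, also of that family, was at 923 CPM in Cre- and 979 CPM in myosin IIA KO CAFs, against 569 CPM in untreated, 1915 CPM in control siRNA and 1952 CPM in Fn1 siRNA PDX CAFs. Nov was separated between the origins, whereas Cyr61 was within 2-fold here and highest in the transfected PDX CAFs. Nid1 and Hspg2, which encode the linker nidogen and the proteoglycan perlecan, were at 1116 and 1245 CPM in Cre- CAFs, against 1620.3 and 1576 CPM in untreated PDX CAFs.

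Matrix proteases and inhibitors had 15 of 35 genes higher and 6 lower. Timp3, the inhibitor that stays bound to the matrix, was at 575 CPM in Cre- and 1218 CPM in myosin IIA KO CAFs, against 28.2 CPM in untreated, 139.8 CPM in control siRNA and 153 CPM in Fn1 siRNA PDX CAFs, and its exons overlap another gene over 21.3% of their length. Mmp14, the membrane collagenase of fibroblasts, was at 1009.8 CPM in Cre- CAFs against 399.9 CPM in untreated PDX CAFs, and Mmp16, a related membrane protease, was lower at 0.727 CPM in Cre- CAFs against 11.4 CPM in untreated PDX CAFs. Inhibitors of plasminogen activators differed from each other. Serpine2, or protease nexin, was at 26.3 CPM in Cre- and 48 CPM in myosin IIA KO CAFs, against 2.92 CPM in untreated, 6.54 CPM in control siRNA and 5.68 CPM in Fn1 siRNA PDX CAFs. Serpinb2, or PAI-2, was at 0.0383 CPM in Cre- CAFs against 4.32 CPM in untreated PDX CAFs (log2 ratio -6.22, 95% counting interval -12.14 to -4.31), on 1 count in Cre- CAFs.

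Integrin genes had 5 of 17 higher and 4 lower. The higher ones were all alpha chains that pair with Itgb1, and they include the collagen receptors Itga1, Itga10 and Itga11. Itga1 was at 191 CPM in Cre- and 256 CPM in myosin IIA KO CAFs, against 10.5 CPM in untreated, 15.2 CPM in control siRNA and 21.9 CPM in Fn1 siRNA PDX CAFs (log2 ratio 4.18). Itga8 and Itga9, which bind nephronectin, tenascin and related proteins, were at 36.2 and 26 CPM in Cre- CAFs, against 1.57 and 1.14 CPM in untreated PDX CAFs, and Itga10 was at 2.18 CPM in Cre- CAFs against 0.847 CPM in untreated PDX CAFs. The lower ones were the laminin receptor chains Itga3 and Itga6 at 9.99 and 5.47 CPM in Cre- CAFs, against 86.4 and 49.1 CPM in untreated PDX CAFs, and the beta chains Itgb7 and Itgb8 at 0.153 and 0.497 CPM in Cre- CAFs, against 3.68 and 2.84 CPM in untreated PDX CAFs. Itgb1, the shared beta chain, was at 1551 CPM in Cre- CAFs against 1353 CPM in untreated PDX CAFs, and Itga5, the fibronectin receptor chain, was at 435 CPM in Cre- CAFs against 571 CPM in untreated PDX CAFs. All 9 chains that differed by over 2-fold were separated between the origins, which also held for 90.6% of all higher and 89.9% of all lower genes.

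TGF-beta pathway genes had 13 of 34 higher and 2 lower, and 4 of the 13 overlapped with PDX-origin libraries. Tgfb3, a ligand, was at 279 CPM in Cre- and 180.2 CPM in myosin IIA KO CAFs, against 49.2 CPM in untreated, 58.3 CPM in control siRNA and 74.6 CPM in Fn1 siRNA PDX CAFs, and Acvrl1, the receptor ALK1 of BMP9, was at 43.3 CPM in Cre- CAFs against 8.38 CPM in untreated PDX CAFs. Fst, which encodes the activin antagonist follistatin, was at 155 CPM in Cre- CAFs against 21.2 CPM in untreated PDX CAFs. Inhba, an activin subunit, overlapped at 197 CPM in Cre- and 134 CPM in myosin IIA KO CAFs, against 85.8 CPM in untreated, 346 CPM in control siRNA and 352 CPM in Fn1 siRNA PDX CAFs, highest in the transfected PDX CAFs. BMP genes had 11 of 30 higher and 4 lower. Targets of BMP were among the higher ones, with Id4 at 63.1 CPM in Cre- CAFs against 2.88 CPM in untreated PDX CAFs, Id3 at 509 CPM in Cre- CAFs against 135 CPM in untreated PDX CAFs and Smad6 at 177 CPM in Cre- CAFs against 36.5 CPM in untreated PDX CAFs. Grem1, the secreted BMP antagonist gremlin, was lower at 5.59 CPM in Cre- and 7.88 CPM in myosin IIA KO CAFs, against 38.8 CPM in untreated, 42.1 CPM in control siRNA and 34.8 CPM in Fn1 siRNA PDX CAFs. Gdf7, a ligand of this family, was at 0.115 CPM in Cre- CAFs against 5.42 CPM in untreated PDX CAFs (log2 ratio -5.33, 95% counting interval -7.86 to -3.98), on 3 counts in Cre- CAFs.

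Wnt genes differed in both directions, 21 of 43 higher and 9 lower. Among frizzled receptors, Fzd1 was at 510.3 CPM in Cre- and 519 CPM in myosin IIA KO CAFs, against 129.8 CPM in untreated, 92.4 CPM in control siRNA and 95.1 CPM in Fn1 siRNA PDX CAFs, and Fzd4 and Fzd5 were also higher at 202 and 232 CPM in Cre- CAFs, against 17.6 and 23.9 CPM in untreated PDX CAFs. The coreceptors Lrp5 and Lrp6 were at 238 and 266 CPM in Cre- CAFs, against 118 and 122 CPM in untreated PDX CAFs. Receptors of R-spondin differed in opposite directions. Lgr5, which marks intestinal and hair follicle stem cells, was at 9.68 CPM in Cre- and 10.6 CPM in myosin IIA KO CAFs, against 0.212 CPM in untreated, 0 CPM in control siRNA and 0.0901 CPM in Fn1 siRNA PDX CAFs. Lgr6, which marks other skin stem cells, was at 1.19 CPM in Cre- and 0.615 CPM in myosin IIA KO CAFs, against 37.8 CPM in untreated, 53.7 CPM in control siRNA and 42.8 CPM in Fn1 siRNA PDX CAFs. Antagonists did so too. Frzb, a secreted frizzled-related protein, was at 11.9 CPM in Cre- and 16.2 CPM in myosin IIA KO CAFs, against 0.0423 CPM in untreated, 0.0385 CPM in control siRNA and 0.045 CPM in Fn1 siRNA PDX CAFs, with 1 count in untreated PDX CAFs (log2 ratio 7.57, 95% counting interval 5.64 to 13.44). Dkk2, which blocks the LRP coreceptor, was at 0.23 CPM in Cre- and 0.0723 CPM in myosin IIA KO CAFs, against 38.3 CPM in untreated, 14.8 CPM in control siRNA and 10.5 CPM in Fn1 siRNA PDX CAFs (log2 ratio -7.26, 95% counting interval -8.83 to -6.25). Nkd1, a target gene that dampens the pathway, was at 8.76 CPM in Cre- CAFs against 0.254 CPM in untreated PDX CAFs. Each of these genes was separated between the origins.

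Notch and Hedgehog genes had 11 of 19 higher and none lower, with a median log2 ratio of 1.11. Jag1, a Notch ligand, was at 377 CPM in Cre- and 253 CPM in myosin IIA KO CAFs, against 29.7 CPM in untreated, 72.4 CPM in control siRNA and 98.4 CPM in Fn1 siRNA PDX CAFs (log2 ratio 3.66). The target gene Hey1 was at 19.4 CPM in Cre- and 30.1 CPM in myosin IIA KO CAFs, against 0.254 CPM in untreated, 0.846 CPM in control siRNA and 1.44 CPM in Fn1 siRNA PDX CAFs (log2 ratio 6.14). Heyl, a target found in mural cells, was at 8 CPM in Cre- and 4.41 CPM in myosin IIA KO CAFs, against 0 CPM in untreated, 0.0385 CPM in control siRNA and 0.045 CPM in Fn1 siRNA PDX CAFs, at least 62.9-fold higher. Both were above all PDX-origin libraries in both libraries of transgenic origin. In the Hedgehog pathway, the coreceptor Boc was at 68.7 CPM in Cre- and 96.3 CPM in myosin IIA KO CAFs, against 10.7 CPM in untreated, 17.5 CPM in control siRNA and 20 CPM in Fn1 siRNA PDX CAFs, and Smo, the signal transducer, was at 259 CPM in Cre- CAFs against 168 CPM in untreated PDX CAFs. Of the 11 higher genes, 1 overlapped with PDX-origin libraries, namely Hey2 at 6.47 CPM in Cre- and 2.39 CPM in myosin IIA KO CAFs, against 1.69 CPM in untreated, 4.58 CPM in control siRNA and 4.91 CPM in Fn1 siRNA PDX CAFs.

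Among FGF genes 6 of 18 were higher and 4 were lower. The decoy receptor Fgfrl1 was at 170.4 CPM in Cre- CAFs against 58.4 CPM in untreated PDX CAFs and the ligand Fgf18 at 3.98 CPM in Cre- CAFs against 0.212 CPM in untreated PDX CAFs, while the MAP kinase targets Etv4 and Dusp4 were lower at 7.73 and 10.8 CPM in Cre- CAFs, against 56.9 and 63.1 CPM in untreated PDX CAFs. Of 33 PDGF, VEGF, HGF and IGF genes, 7 were higher and 9 were lower, so lower genes outnumbered higher ones. Hbegf, a ligand of the EGF receptor, was at 8.46 CPM in Cre- and 7.23 CPM in myosin IIA KO CAFs, against 32.6 CPM in untreated, 111 CPM in control siRNA and 112 CPM in Fn1 siRNA PDX CAFs. Met, the HGF receptor, was at 22.5 CPM in Cre- CAFs against 63.1 CPM in untreated PDX CAFs. Igfbp4, which binds IGFs, was higher at 369 CPM in Cre- and 482 CPM in myosin IIA KO CAFs, against 23.9 CPM in untreated, 18.9 CPM in control siRNA and 21.5 CPM in Fn1 siRNA PDX CAFs. Angpt2, a vessel-destabilising ligand, was at 33.9 CPM in Cre- CAFs against 4.62 CPM in untreated PDX CAFs. Guidance genes had 18 of 49 higher and 9 lower. Slit3, a secreted guidance cue, was at 244 CPM in Cre- CAFs against 47.7 CPM in untreated PDX CAFs, and Ephb1, an ephrin receptor, had 99 counts in Cre- CAFs and none in the 3 PDX-origin libraries, at least 29.8-fold higher. Unc5a, a netrin receptor, was at 4.25 CPM in Cre- CAFs against 0.0847 CPM in untreated PDX CAFs (log2 ratio 5.35, 95% counting interval 3.76 to 8.71), on 2 counts in untreated PDX CAFs. Ephb6, an ephrin receptor without kinase activity, was lower at 0.727 CPM in Cre- CAFs against 9.91 CPM in untreated PDX CAFs.

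Of 34 chemokine and cytokine genes, 10 were higher and 7 were lower, and 4 of the 10 and 1 of the 7 overlapped between the origins. The IL-1 family was represented on both sides. Il1rl1, the receptor of IL-33, was at 2.64 CPM in Cre- and 1.74 CPM in myosin IIA KO CAFs, against 320.1 CPM in untreated, 181 CPM in control siRNA and 157 CPM in Fn1 siRNA PDX CAFs (log2 ratio -6.91, 95% counting interval -7.29 to -6.58). Il1rn, which encodes the antagonist of the IL-1 receptor, was at 331 CPM in Cre- and 345 CPM in myosin IIA KO CAFs, against 6.48 CPM in untreated, 1.19 CPM in control siRNA and 1.44 CPM in Fn1 siRNA PDX CAFs (log2 ratio 5.67). The groups did not overlap for either gene. Ptgs2, the inducible cyclooxygenase that makes prostaglandins, was lower at 1.53 CPM in Cre- and 2.46 CPM in myosin IIA KO CAFs, against 68.5 CPM in untreated, 335 CPM in control siRNA and 337 CPM in Fn1 siRNA PDX CAFs. Complement genes had 10 of 18 higher and 4 lower. C3, the central component, was at 19.7 CPM in Cre- and 181 CPM in myosin IIA KO CAFs, against 0.974 CPM in untreated, 3.19 CPM in control siRNA and 4.5 CPM in Fn1 siRNA PDX CAFs. C4b, of the classical pathway, was at 205 CPM in Cre- and 509 CPM in myosin IIA KO CAFs, against 3.26 CPM in untreated, 11.7 CPM in control siRNA and 17.2 CPM in Fn1 siRNA PDX CAFs, and its reads could be shared with the near copy C4a. C1s1 and C1ra, the proteases that start the classical pathway, were at 124 and 87 CPM in Cre- CAFs, against 22.6 and 43.4 CPM in untreated PDX CAFs. Cfd, the complement factor known as adipsin and made by fat cells, had 123 counts in Cre- CAFs and none in the 3 PDX-origin libraries. C3ar1, the C3a receptor, was lower at 0.153 CPM in Cre- and 0.289 CPM in myosin IIA KO CAFs, against 9.53 CPM in untreated, 15.9 CPM in control siRNA and 11.7 CPM in Fn1 siRNA PDX CAFs.

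Of 41 interferon and antigen presentation genes, 32 were within 2-fold. Higher genes were 7 (17.1%, against 10.9% of all genes) and lower genes 2 (4.88%, against 8.3%). The class I genes H2-D1 and H2-K1 were at 685 and 427 CPM in Cre- CAFs, against 636 and 287 CPM in untreated PDX CAFs, and B2m, their shared light chain, was at 991 CPM in Cre- CAFs against 468 CPM in untreated PDX CAFs. The non-classical genes H2-T23 and H2-T22 were higher at 67.3 and 109 CPM in Cre- CAFs, against 1.61 and 5.12 CPM in untreated PDX CAFs. Class I genes are near copies of each other, and the exons of H2-T22 overlap another gene over 29.4% of their length, so reads could be split between them.

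Of 19 cadherin and adhesion genes, 4 were higher (21.05%, against 10.9% of all genes) and 4 were lower (21.05%, against 8.3%). Cdh11, the cadherin of mesenchyme, was at 275 CPM in Cre- CAFs against 117 CPM in untreated PDX CAFs, and Cdh2, which encodes N-cadherin, was at 138 CPM in Cre- CAFs against 133 CPM in untreated PDX CAFs. Alcam, an adhesion molecule of the immunoglobulin family, was at 5.51 CPM in Cre- and 11.4 CPM in myosin IIA KO CAFs, against 108 CPM in untreated, 105 CPM in control siRNA and 109.7 CPM in Fn1 siRNA PDX CAFs. Cdh13, a cadherin without a membrane span, was at 0.65 CPM in Cre- CAFs against 24.6 CPM in untreated PDX CAFs, and Cdh18 and Cadm1 had no count in Cre- CAFs and 41 and 39 counts in untreated PDX CAFs. Imprinted genes had 11 of 26 higher and 2 lower. Meg3, a maternally expressed long RNA on chromosome 12, was at 44.8 CPM in Cre- and 39.5 CPM in myosin IIA KO CAFs, against 1.4 CPM in untreated, 1.27 CPM in control siRNA and 0.901 CPM in Fn1 siRNA PDX CAFs. Rian, the next long RNA of that region, was at 42.8 CPM in Cre- CAFs against 1.27 CPM in untreated PDX CAFs. Mest, a paternally expressed hydrolase gene, was at 41.1 CPM in Cre- CAFs against 1.06 CPM in untreated PDX CAFs and the long RNA H19 was at 15.8 CPM in Cre- CAFs against 1.06 CPM in untreated PDX CAFs. In each of these 4 genes the 2 libraries of transgenic origin were above all PDX-origin libraries.

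All 32 genes of the cell cycle list were within 2-fold, with a median log2 ratio of -0.33. Mki67, the proliferation antigen, was at 314 CPM in Cre- CAFs against 383 CPM in untreated PDX CAFs, and Top2a, the DNA topoisomerase of dividing cells, was at 390.4 CPM in Cre- CAFs against 464 CPM in untreated PDX CAFs. Of 27 p53 targets and Cdkn genes, 3 were higher (Pmaip1, Phlda3 and Trp53inp1) and none was lower. The share of higher genes was 11.1%, near the 10.9% over all genes. Cdkn1a, the p53-induced inhibitor p21, was at 169 CPM in Cre- CAFs against 110.2 CPM in untreated PDX CAFs, and Cdkn2a, which encodes p16 and Arf, was at 168 CPM in Cre- CAFs against 269.8 CPM in untreated PDX CAFs. Ccnd1 and Cdk6, the cyclin and kinase of early G1 phase, are in neither list, are named after their values were seen and were lower at 13.5 and 1.11 CPM in Cre- CAFs, against 186 and 28.5 CPM in untreated PDX CAFs.

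Of 29 actomyosin genes, 5 were higher (17.2%, against 10.9% of all genes) and 1 was lower (3.45%, against 8.3%). Actb, the main cytoplasmic actin, was at 5291 CPM in Cre- CAFs against 4429 CPM in untreated PDX CAFs. Among 24 YAP and TEAD targets, 7 were higher and 4 were lower, and 3 of the 7 and 1 of the 4 overlapped between the origins. Amotl2, a feedback target of YAP, was at 813 CPM in Cre- CAFs against 314 CPM in untreated PDX CAFs and Axl, a receptor kinase, was at 476 CPM in Cre- and 325 CPM in myosin IIA KO CAFs, against 1339.6 CPM in untreated, 1668 CPM in control siRNA and 1556 CPM in Fn1 siRNA PDX CAFs. Of 19 genes of mechanical ion channels and caveolae, 1 was higher (5.26%, against 10.9% of all genes) and 3 were lower (15.8%, against 8.3%). Piezo1, the stretch-activated channel, was at 290.0 CPM in Cre- CAFs against 398 CPM in untreated PDX CAFs, and its paralog Piezo2, the touch channel, was at 53.3 CPM in Cre- and 90 CPM in myosin IIA KO CAFs, against 5.25 CPM in untreated, 7.89 CPM in control siRNA and 10.1 CPM in Fn1 siRNA PDX CAFs (log2 ratio 3.34).

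At 10 CPM or more in either library, the 15 largest and 15 smallest ratios of protein-coding genes included several genes already given. Trim12a, a TRIM-family gene in a cluster of near copies on chromosome 7, had 530 counts in Cre- CAFs and no count in any PDX-origin library, at least 159.6-fold higher. Adgrf5, an adhesion receptor of lung and endothelium, was at 53.4 CPM in Cre- and 65.5 CPM in myosin IIA KO CAFs, against 0.0847 CPM in untreated, 0.462 CPM in control siRNA and 0.405 CPM in Fn1 siRNA PDX CAFs (log2 ratio 8.99, 95% counting interval 7.44 to 12.35, on 2 counts in untreated PDX CAFs). Angptl1, a secreted relative of the angiopoietins, was at 27.8 CPM in Cre- CAFs against 0.0423 CPM in untreated PDX CAFs (log2 ratio 8.80, 95% counting interval 6.88 to 14.67), on 1 count in untreated PDX CAFs. Limch1, which promotes non-muscle myosin activity, and Ptprz1, a receptor phosphatase of glia, were also on 1 count in untreated PDX CAFs, with 95% counting intervals of the log2 ratio of 6.01 to 13.81 and 6.09 to 13.88. Mgll, which breaks down monoglycerides in fat cells, was at 34.2 CPM in Cre- and 131 CPM in myosin IIA KO CAFs, against 0.127 CPM in untreated, 0.654 CPM in control siRNA and 0.27 CPM in Fn1 siRNA PDX CAFs (log2 ratio 7.86, 95% counting interval 6.52 to 10.35), on 3 counts in untreated PDX CAFs, and Scara3, a scavenger receptor, at 36.2 CPM in Cre- CAFs against 0.212 CPM in untreated PDX CAFs.

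On the lower side, Il18rap, a subunit of the IL-18 receptor on chromosome 1 beside Il1rl1, had no count in Cre- CAFs and 288 counts in untreated PDX CAFs, at least 106-fold lower. Cd24a, a glycoprotein of progenitor cells, was at 0.383 CPM in Cre- and 1.74 CPM in myosin IIA KO CAFs, against 48.5 CPM in untreated, 25.7 CPM in control siRNA and 24.4 CPM in Fn1 siRNA PDX CAFs. Ucp2, a mitochondrial carrier, was at 8.46 CPM in Cre- and 17.2 CPM in myosin IIA KO CAFs, against 498 CPM in untreated, 347 CPM in control siRNA and 319 CPM in Fn1 siRNA PDX CAFs (log2 ratio -5.88). Ces1g, a carboxylesterase, was at 0.115 CPM in Cre- CAFs against 15.4 CPM in untreated PDX CAFs (log2 ratio -6.83, 95% counting interval -9.35 to -5.51), on 3 counts in Cre- CAFs. Krt80, a keratin, was at 0.306 CPM in Cre- CAFs against 12.3 CPM in untreated PDX CAFs, and Lipg, the endothelial lipase, was at 0.268 CPM in Cre- CAFs against 10.5 CPM in untreated PDX CAFs. Pianp and Tmem171, both membrane proteins, were at 0.191 and 0.268 CPM in Cre- CAFs, against 22.7 and 11.6 CPM in untreated PDX CAFs. Prl2c2, a prolactin relative known as proliferin, was at 5.78 CPM in Cre- CAFs against 302 CPM in untreated PDX CAFs and Hmga1b, a copy of the chromatin gene Hmga1, was at 2.03 CPM in Cre- CAFs against 100.9 CPM in untreated PDX CAFs, and both have near-identical copies that could share their reads. The clone-named gene AC154187.2 was at 0.459 CPM in Cre- CAFs against 16.2 CPM in untreated PDX CAFs, and its exons overlap another gene over 100% of their length. Each of these genes was below all PDX-origin libraries in both libraries of transgenic origin.

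The ratios were also read along the genome. The median log2 ratio per autosome ran from -0.25 on chromosome 15 to 0.09 on chromosome 1. On chromosome 15, 68% of 529 genes had a ratio below 0, against 42.8% of 783 genes on chromosome 1. The medians of chromosome 15 were -0.31 for myosin IIA KO over untreated, -0.20 for Cre- over control siRNA and -0.28 for myosin IIA KO over control siRNA PDX CAFs, and chromosome 15 was the lowest autosome in all 4 pairs. Along it, the medians of 25 neighbouring genes at 5 CPM or more lay between -0.61 and -0.04, the lowest over the stretch from Mgat3 to Desi1 (80173721 to 82040085), where 23 of 25 genes had a ratio below 0. The lowest stretch of chromosome 11 ran from Stk10 to Thg1l (32533305 to 45955494) with a median of -0.50. The highest was on chromosome 13 from Smim13 to Id4 (41249844 to 48266026) with a median of 0.49. No other autosome had its highest stretch below 0. These shifts are small beside the ratios of the named genes.

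**Figure D4:**
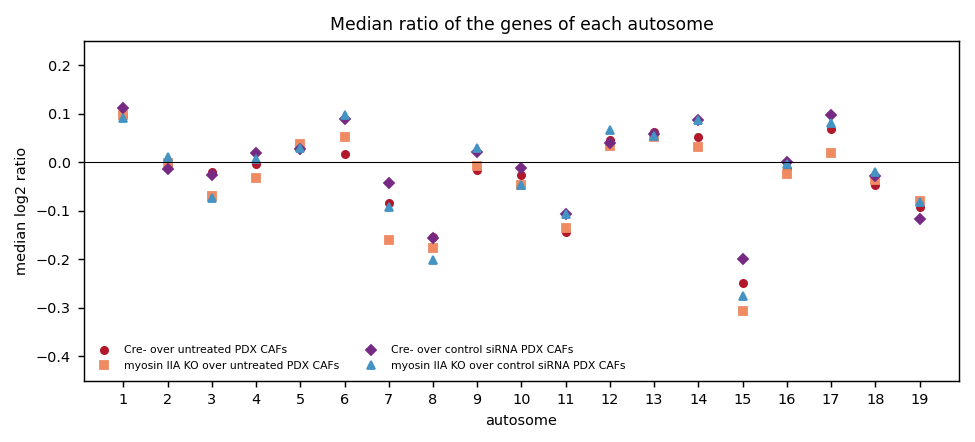
Median log2 ratio (y axis) of the genes compared on each autosome (x axis) in 4 pairs of libraries, each a library of transgenic-mouse origin over one of PDX origin. Chromosome 15 is lowest in all 4 pairs, at -0.25 for Cre- over untreated PDX CAFs, and the pairs share libraries, so they are not independent.

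The lists did not respond alike when the PDX library was changed. For Cre- over control siRNA PDX CAFs, myCAF markers had a median log2 ratio of 0.59, against 1.61 over untreated PDX CAFs. SRF and MRTF targets had a median of -0.13 over control siRNA and 0.47 over untreated PDX CAFs, and TGF-beta pathway genes -0.06 and 0.66. In the pair of myosin IIA KO over control siRNA PDX CAFs, which shares no library with the comparison, the medians of these lists were -0.27, -0.53 and -0.06. Hox genes had medians of 1.12 and 1.57 in these 2 pairs, Notch and Hedgehog genes 0.95 and 1.09, complement genes 0.95 and 1.20, and Wnt genes 0.87 and 1.01. The Hox, Notch, complement and Wnt medians were above 0 in all 3 pairs, while those of SRF targets and TGF-beta genes were below 0 in 2 of them and that of myCAF markers in 1. Adipocyte genes reached 4.34 in the knockout pair.

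**Figure D5:**
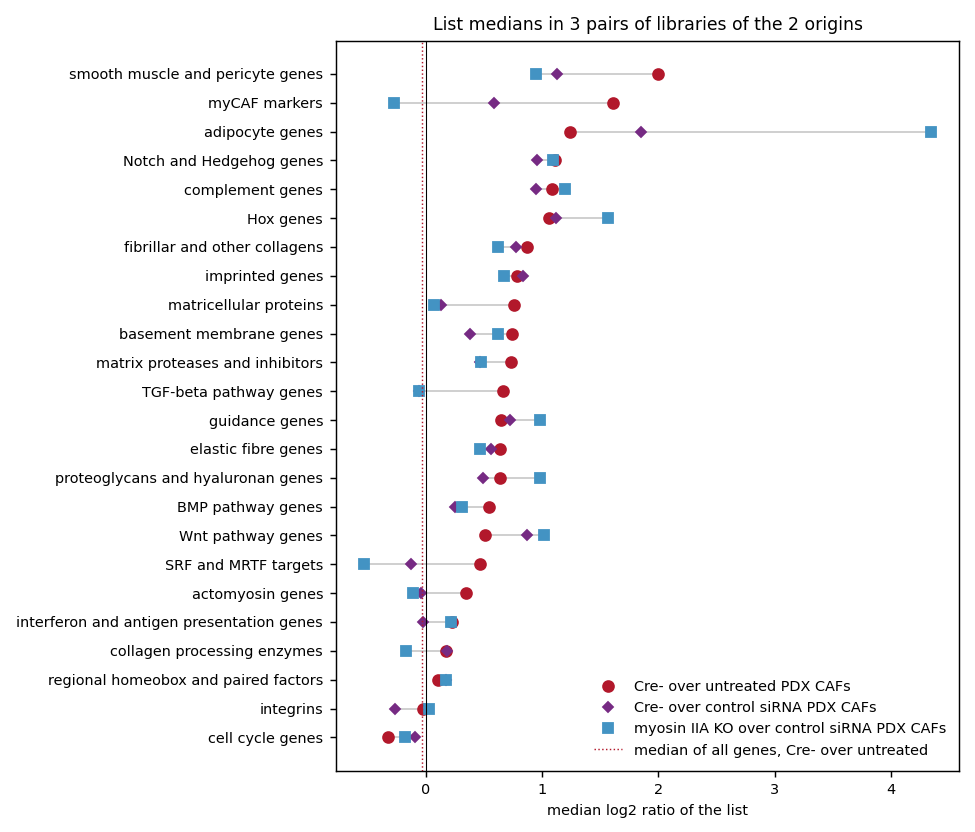
Median log2 ratio (x axis) of a selection of the 48 lists in 3 pairs of libraries. Circles are Cre- over untreated PDX CAFs, diamonds Cre- over control siRNA PDX CAFs and squares myosin IIA KO over control siRNA PDX CAFs, and the dotted line is the median of all genes, -0.03. The myCAF markers are at -0.27 in the pair of the squares, whereas Hox genes are at 1.57.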

How the data were processed

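RNA was extracted from 5 immortalized mouse CAF cultures with an RNeasy kit and DNase and sequenced by a service provider. The authors deposited raw read counts per gene with no normalization. Genome build mm10 is named in the submitters' processing notes, and for the aligner, the counter and the strand setting nothing is given in the sources. Counts on 104 transcript rows without a gene name (0.0422% to 0.0551% per library) were kept in the totals.

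Counts were scaled with the TMM method of edgeR 4.0.16 (R 4.3.3) over the 5 libraries, and log2 ratios were taken with 0.5 counts added in proportion to library size (Python 3.11.15, numpy 2.4.6, pandas 2.3.3). The design has 1 library per condition, so no p-value was computed, and the p-value and dispersion steps of count tests were not used. Each ratio has an exact 95% binomial interval from scipy 1.17.1, which covers counting error only, since reads of 1 library are not independent cultures. A gene without a count in 1 library was set at 3 counts there, equal to 0.115 CPM in Cre- CAFs and 0.127 CPM in untreated PDX CAFs, and its fold is given as "at least". The calculation was tested on simulated data.

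Of 54532 Ensembl IDs, 54495 were found in GENCODE M21, which gave the shares of exon overlap with other genes. Promoters came from RefSeq (GRCm38.p6). The 48 gene lists held 1308 symbols, of which 1296 were found, a gene can be in several lists, and the members and lists were chosen with earlier results of these data known. Genes were named by rule: the 4 markers, the 15 largest and 15 smallest ratios of protein-coding genes at 10 CPM or more, in each list up to 5 members with the largest ratios and up to 5 with the highest CPM, and all Hox and T-box genes. Of the genes under this rule, 4 are not reported here by name and stay in the counts and medians of their lists. Ccnd1, Cdk6, Cebpa, Cnn2, Col11a1, Col7a1, En1, Fzd4, Fzd5, Has2, Hey2, Inhba, Itga10, Itga3, Itga6, Itgb8, Lima1, Pparg and Ryr1 fall outside it and were chosen after their values were seen. Alternatives were other scalings (DESeq2 1.42.0 size factors, TMM within 2 libraries, upper quartile, library totals), other filters, 5 counts added and other pairs of libraries.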

Additional observations from a re-analysis of the deposited data

Results flagged for a closer look

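The autosomal comparison leaves out the X and Y chromosomes, and 5 genes there were counted in Cre- CAFs above every PDX-origin library. Of the genes on the Y chromosome, Ddx3y, a helicase gene, was at 75 CPM in Cre- and 83.4 CPM in myosin IIA KO CAFs, against 0 CPM in untreated, 0 CPM in control siRNA and 0 CPM in Fn1 siRNA PDX CAFs. Eif2s3y, a translation factor gene, was at 46.3 CPM in Cre- and 53.7 CPM in myosin IIA KO CAFs, against 0 CPM in untreated, 0 CPM in control siRNA and 0 CPM in Fn1 siRNA PDX CAFs. Kdm5d and Uty, which encode histone demethylases, were at 31.1 and 20.4 CPM in Cre- CAFs, against 0 and 0 CPM in untreated PDX CAFs, with no count in the siRNA libraries either. Xist, the RNA of the inactive X chromosome, was at 0 CPM in Cre- and 0 CPM in myosin IIA KO CAFs, against 501 CPM in untreated, 633 CPM in control siRNA and 576 CPM in Fn1 siRNA PDX CAFs. The methods of the study name female hosts for the PDX, and the labels give no sex for the Cre- animal. Of 436 X-linked genes at 1 CPM or more, 46 were over 2-fold higher and 56 were lower, with a median log2 ratio of -0.05. Tnmd, an X-linked gene of tendon and fat cells, was at 22.2 CPM in Cre- and 3.04 CPM in myosin IIA KO CAFs, against 0.0847 CPM in untreated, 0.0385 CPM in control siRNA and 0.225 CPM in Fn1 siRNA PDX CAFs (log2 ratio 7.73, 95% counting interval 6.18 to 11.09), on 2 counts in untreated PDX CAFs and highest in Cre- CAFs. No explanation was tested.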

How the results depend on the processing

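No paired analysis was possible because each condition had 1 library, and for the same reason no library could be left out of a group. Other scalings moved the median log2 ratio of all genes from -0.03 to between -0.08 and -0.02 and turned the sign of none of the 239 named genes and 10 list medians past 2-fold. Within 2-fold, library totals alone gave a median of -0.014 for universal fibroblast markers, against 0.03 in the comparison, and 1 of 126 named genes (Tapbp) changed sign under a scaling. With no filter on low values, 4996 genes were over 2-fold higher and 3644 lower, and at 10 CPM 633 were higher and 529 lower, since more or fewer genes were compared. Requiring the whole counting interval to pass 2-fold left 930 higher genes. The list of antigen-presenting CAF markers, with 3 genes compared, had a median log2 ratio of 0.40 with no filter and 1.36 for myosin IIA KO over untreated PDX CAFs, against -1.46 in the comparison. Depth limits the genes under 1 CPM, where 3 counts are the floor.

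Changing the pair of libraries changed more. For Cre- over control siRNA PDX CAFs, the medians were 0.59 for myCAF markers, -0.13 for SRF and MRTF targets, -0.059 for TGF-beta genes, -0.088 for cell cycle genes and -0.12 for p53 targets and Cdkn genes. For Cre- over Fn1 siRNA PDX CAFs, they were 0.44 for myCAF markers, 0.86 for smooth muscle and pericyte genes, 0.46 for collagens, -0.16 for SRF and MRTF targets, -0.32 for YAP and TEAD targets, -0.11 for TGF-beta genes, -0.030 for cell cycle genes and -0.14 for p53 targets and Cdkn genes. For myosin IIA KO over control siRNA PDX CAFs, they were -0.27 for myCAF markers, 1.57 for Hox genes, 0.95 for smooth muscle and pericyte genes, -0.11 for actomyosin genes, -0.53 for SRF and MRTF targets, -0.47 for YAP and TEAD targets, -0.057 for TGF-beta genes, -0.18 for cell cycle genes and -0.050 for p53 targets and Cdkn genes. For myosin IIA KO over untreated PDX CAFs, cell cycle genes had a median of -0.43.

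Of the 239 named genes past 2-fold, 15 changed sign in at least 1 pair, and so did 50 of the 126 named genes within 2-fold. For myosin IIA KO over control siRNA PDX CAFs, the log2 ratio was -0.092 for Acta1, -0.51 for Acta2, -1.03 for Cnn1, -0.048 for Csrp1, -1.33 for Ctgf, 0.23 for Fasn, 0.49 for Fgf10, -0.078 for Myl9, -0.12 for Pmaip1, 1.12 for Scd1, -0.65 for Tpm1, -0.27 for Tpm2 and -0.20 for Unc5b. For Cre- over control siRNA PDX CAFs, it was -0.49 for Ctgf, -0.24 for Pmaip1 and -0.34 for Unc5b. For Cre- over Fn1 siRNA PDX CAFs, it was -0.76 for Ctgf, -0.36 for Pmaip1, -0.15 for Tpm1 and -0.44 for Unc5b. For myosin IIA KO over untreated PDX CAFs, it was -0.038 for Neb, -1.01 for Pdgfd and 0.25 for Scd1. The cause was not tested.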

Other observations

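Genes without a protein product also separated the cultures, and those given here were chosen after their values were seen. The long non-coding gene Gm42047 was at 54.3 CPM in Cre- and 54.9 CPM in myosin IIA KO CAFs, against 0 CPM in untreated, 0 CPM in control siRNA and 0 CPM in Fn1 siRNA PDX CAFs, and Gm43305 was at 12 CPM in Cre- and 12.3 CPM in myosin IIA KO CAFs, against 0 CPM in untreated, 0 CPM in control siRNA and 0 CPM in Fn1 siRNA PDX CAFs. Both were without a count in the 3 libraries of PDX origin. Hoxaas2, an antisense RNA of the HoxA cluster, was at 13.3 CPM in Cre- and 23.3 CPM in myosin IIA KO CAFs, against 4.02 CPM in untreated, 2.85 CPM in control siRNA and 3.15 CPM in Fn1 siRNA PDX CAFs, so it was higher together with the HoxA genes, and without a known strand setting reads of the 2 strands cannot be told apart. On the other side, Gm7292 was at 0.574 CPM in Cre- and 0.723 CPM in myosin IIA KO CAFs, against 19 CPM in untreated, 15.6 CPM in control siRNA and 17.3 CPM in Fn1 siRNA PDX CAFs, below all PDX-origin libraries in both libraries of transgenic origin.

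Rpl29, a ribosomal protein gene, was at 258 CPM in Cre- and 211 CPM in myosin IIA KO CAFs, against 2.03 CPM in untreated, 3.65 CPM in control siRNA and 5.72 CPM in Fn1 siRNA PDX CAFs. It has near-identical copies, so its reads could have been counted elsewhere, which was not tested.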
